A study of Mus musculus with 7 samples.

Results

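The 85 genes described here encode subunits of the respiratory complexes and of the ATP synthase in the nucleus, and were taken by symbol from the 24346 genes of the table: symbols that begin with Nduf and the letter a, b, c, s or v and a digit, with Sdha to Sdhd, with Uqcr, with Cox and a digit from 4 to 8 or with Atp5, and Cyc1. They fall into 35 genes of complex I, 4 of complex II, 9 of complex III, 18 of complex IV, 17 of complex V, and the pair Ndufa4 and Ndufa4l2, which is kept apart because Ndufa4 bears a complex I name but belongs to complex IV. Atp5s and Atp5sl are named like ATP synthase subunits without being core subunits, and Ndufab1 does not match the rule. RNA was sequenced from primary neurospheres, free-floating cultures of neural stem cells, grown from the hippocampus of C57/BL6 mice with 1 mouse per library. The 4 control libraries came from littermates labelled wild type (mice WT_215, WT_116, WT_213 and WT_220), which by the study's methods were Med23 flox/+ or Med23 flox/flox animals. The 3 Med23 CKO libraries (mice KO_117, KO_214 and KO_218) came from Nestin-CreER:Med23 flox/flox animals, in which the Nestin promoter drives a tamoxifen-dependent recombinase that removes a part of Med23, a subunit of the Mediator complex. Both groups received tamoxifen at 200 mg/kg for 5 days and are labelled as 2 months old. Values of single libraries are always given in this order of the mice.

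Oxidative phosphorylation passes electrons from NADH (complex I) and succinate (complex II) through complex III and cytochrome c to complex IV, which reduces oxygen, and the proton gradient built on the way drives ATP synthesis by complex V. Most subunits are encoded in the nucleus, and their genes are known targets of the factors NRF1, GABPA, YY1 and the coactivator PGC-1alpha (Ppargc1a). Neural stem cells are known for a shift from glycolysis towards oxidative phosphorylation as they become neurons.

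Values are FPKM, fragments scaled to transcript length and to the number of mapped fragments, so levels can be compared between genes. The libraries correlated with each other at 0.907 to 0.990 over the genes tested, and their depth is unknown. Med23 itself was at 11.4, 10.3, 12.9 and 10.1 FPKM in the control mice and at 9.97, 9.27 and 8.12 FPKM in the Med23 CKO mice, a log2 fold change of -0.26 (standard error, SE, 0.18, exact permutation p = 0.0571), and this value covers the whole gene, including exons outside the deleted part. Markers of neural stem cells and radial glia were high in every library (summed level 1751 to 3871 FPKM over 9 genes). The summed level of 8 markers of the oligodendrocyte lineage was 2193 to 4843 FPKM, although their mean log2(FPKM + 1) was 4.80 in KO_117 and 6.07 to 7.39 in the others. These markers went different ways in KO_117. Olig1 (1586 FPKM) and Olig2 (505 FPKM) were exceeded only in WT_220, while Sox10 (2.97 FPKM) had its lowest value in KO_117. Med23 CKO mouse KO_214 stood apart, with summed levels of 1099 FPKM for microglia and macrophage markers and 448 FPKM for mural cell markers, against at most 244 and 137 FPKM in the other libraries. In these bulk samples, fewer cells of a type and less RNA per cell cannot be told apart.

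All but 2 of the genes were above 0 in every library. Cox8c was listed at 0 in all 7 libraries, and Cox7b2 at 0 in the 4 controls and in Med23 CKO mouse KO_218, with 0.364 and 0.278 FPKM in Med23 CKO mice KO_117 and KO_214. Both are isoforms known from testis, and neither reached the mean of 0.5 FPKM set for testing. Of the other 83 genes, 76 had a mean of at least 20 FPKM. The 85 genes held between 3.98% and 4.96% of the summed FPKM of all genes of the table in a library. The shares were 4.15%, 4.64%, 4.71% and 4.297% in the controls and 4.24%, 3.98% and 4.96% in Med23 CKO, and these ranges overlapped.

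The complexes, as listed here, differed in their median level. The median over genes of the mean control FPKM was 390 for complex V, 298 for complex III, 234 for complex IV, 155 for complex I and 129 for complex II. Complexes IV, I and II kept this order in all 7 libraries. Complexes III and V changed places only in control mouse WT_116, where complex III had a median of 334 FPKM and complex V one of 331 FPKM. Their distance varied, and in control mouse WT_215 the medians were 253 and 367 FPKM. These medians depend on which genes are counted. That of complex IV counts minor isoforms (control means: Cox8b 2.50, Cox6a2 2.60, Cox4i2 2.92, Cox7a1 4.68 and Cox6b2 67.0 FPKM). It leaves out Ndufa4, at 565 FPKM, and that of complex V counts Atp5s (7.82 FPKM) and Atp5sl (7.58 FPKM). The order was not computed without such genes. The genes with the highest mean over the libraries in each complex were Ndufc2 (complex I, an accessory membrane subunit), Sdhb (the iron-sulfur subunit of complex II), Uqcrq (a small subunit of complex III), Cox6a1 (complex IV) and Atp5b (the catalytic beta subunit of complex V). In the controls these averaged 438 ± 55.1, 152 ± 8.22, 572 ± 57.0, 1306 ± 191 and 812 ± 152 FPKM (SD, n = 4), and in Med23 CKO 441 ± 119, 161.5 ± 9.48, 545 ± 81.6, 1124 ± 164 and 895 ± 216 FPKM (SD, n = 3).

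**Figure D1:**
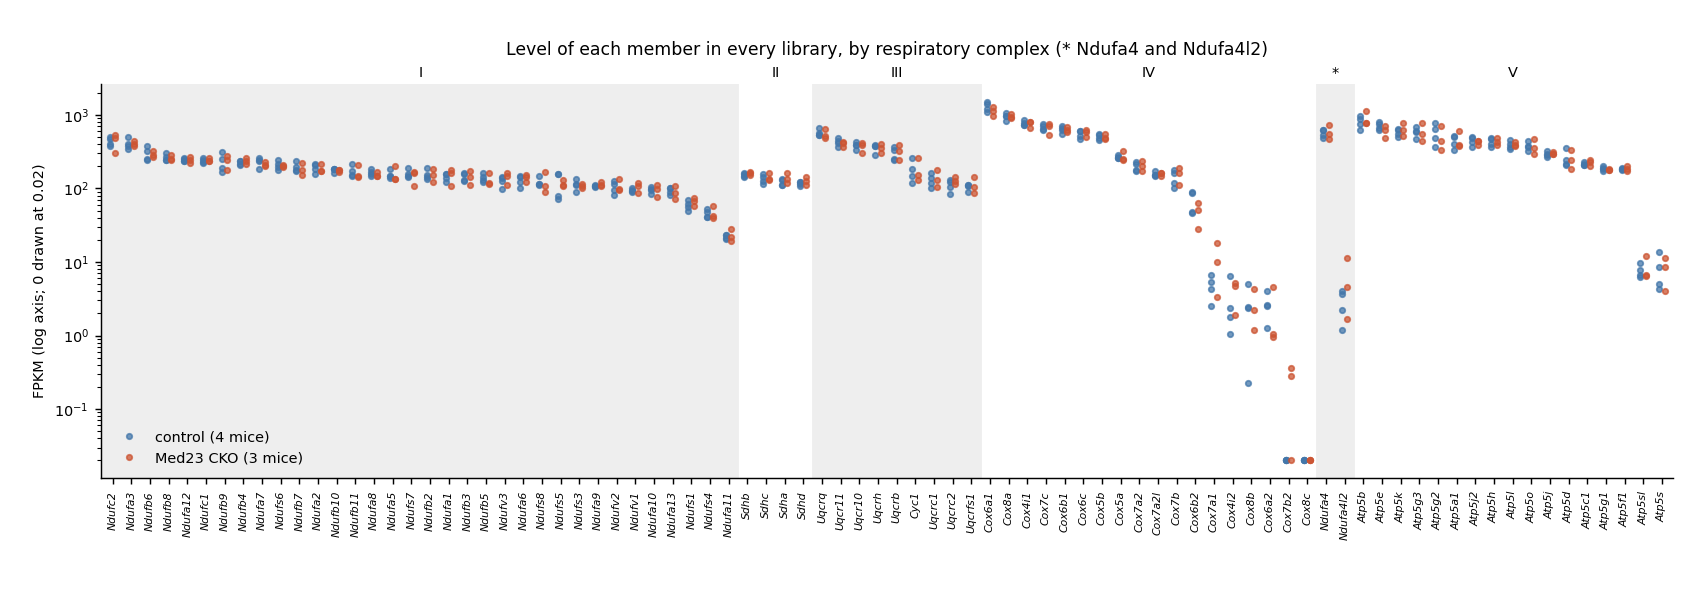
FPKM of 84 of the 85 genes (log axis, with 0 drawn at 0.02) in the 4 control (blue) and 3 Med23 CKO (orange) libraries, grouped by complex and ordered by mean. Points of both colours lie on each other for the abundant genes, while Cox7a1, Cox4i2, Cox8b, Cox6a2, Ndufa4l2 and the Atp5s pair sit far below the rest and spread more widely.

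Promoter sequences were looked at because these genes share regulators, and a RefSeq entry on GRCm38.p6 (mm10), from 250 bases before the start to 50 after, was found for 69 of the 85 genes. Exact matches on either strand were counted for the letters GCATGCGC (NRF1), CCGGAAG (GABPA and other ETS factors) and AAGATGGC (YY1). The NRF1 letters occurred in 10 of the 69 promoters (14.5%), against 5.70% of the promoters of the 10635 other genes tested and 3.05% of all 27025 promoters. The YY1 letters occurred in 11 (15.9%), against 4.94% and 3.19%, and the ETS letters in 16 (23.2%), against 18.5% and 9.93%. At least 1 of these was present in 31 promoters (44.9%), against 26.4% of the other genes tested and 14.9% of all. The Sp1 letters GGGCGG were in 28 promoters (40.6%), a smaller share than the 68.6% of the other genes tested and close to the 38.2% of all, and TATAAA was in 7 (10.1%), against 8.87% and 15.7%. These shares describe letters in a window and show neither binding nor control, and matches that share bases were each counted.

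The 200 bases before the start are shown for 4 genes, the most abundant genes of complexes II, IV and V and the gene with the smallest p, Cox7a1. They run 5′ to 3′ on the gene's own strand, and capitals mark the NRF1 and ETS letters or their reverse complements. Sdhb (forward strand, chr4:140961071-140961270) has the NRF1 letters 54 bases before its start, and Cox6a1 (reverse strand, chr5:115348959-115349158) has them on both strands, as an overlapping palindrome, 160 and 162 bases before its start and the ETS letters 16 bases before it. Atp5b (forward strand, chr10:128083107-128083306) and Cox7a1 (forward strand, chr7:30183971-30184170), the isoform known from heart and skeletal muscle, have neither in this stretch.
Sdhb: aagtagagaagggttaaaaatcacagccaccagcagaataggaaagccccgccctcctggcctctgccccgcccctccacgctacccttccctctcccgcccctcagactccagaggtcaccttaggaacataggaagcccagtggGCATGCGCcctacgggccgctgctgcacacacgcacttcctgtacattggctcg
Cox6a1: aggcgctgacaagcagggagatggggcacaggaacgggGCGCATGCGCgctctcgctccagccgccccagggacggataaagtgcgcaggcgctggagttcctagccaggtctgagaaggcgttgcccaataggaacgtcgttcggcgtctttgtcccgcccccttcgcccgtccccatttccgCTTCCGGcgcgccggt
Atp5b: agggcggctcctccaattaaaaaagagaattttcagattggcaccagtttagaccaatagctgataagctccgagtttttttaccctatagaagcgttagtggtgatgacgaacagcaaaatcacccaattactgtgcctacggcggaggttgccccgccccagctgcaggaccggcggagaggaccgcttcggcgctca
Cox7a1: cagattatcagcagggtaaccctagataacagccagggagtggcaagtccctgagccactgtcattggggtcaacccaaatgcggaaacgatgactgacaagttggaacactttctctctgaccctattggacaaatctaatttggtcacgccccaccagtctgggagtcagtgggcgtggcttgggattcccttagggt

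The comparison of Med23 CKO with control asks whether loss of Med23 changed these genes in neurosphere cells. No difference in a gene of oxidative phosphorylation could be told from the spread between mice, which does not show that these genes were unchanged. By limma, 0 of the 83 genes tested had a Benjamini-Hochberg adjusted p under 0.05, and so had 0 of all 14151 genes tested (0%). At an unadjusted p under 0.05 there were 0 of the 83 in either direction, beside 0.502% of all genes higher and 0.996% lower in Med23 CKO. In none of the 83 did all 3 Med23 CKO values lie above all 4 control values, beside 0.784% of all genes, and in none did they lie below, beside 1.53%. Counts of 0 are near these background shares and are not in themselves a result about these genes. The smallest unadjusted p was 0.151, for Cox7a1.

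The size of the differences says more than the calls. On the scale of log2(FPKM + 1), the median log2 fold change of the 83 genes was 0.01, with 46 above 0 and 37 below, beside a median of -0.03 over all genes tested. The median size, without sign, was 0.06, against 0.15 over all genes tested. For 56 of the 83 genes (67.5%) the 95% interval of the difference lay within 1.5-fold in both directions, which was so for 21.3% of all genes tested. In lists of related genes this share was lower, to differing degrees. It was 58.4% for 77 mitochondrial ribosomal genes (median level 39.0 FPKM) and 48.9% for 47 assembly factors (median level 15.6 FPKM). It was 56% for 25 genes of electron carriers and nucleotide exchange, 32.1% for 78 cytosolic ribosomal genes and 13% for 23 regulators of mitochondrial gene expression. At 20 FPKM or more the interval lay within 1.5-fold for 56 of 76 oxidative phosphorylation genes (73.7%) and for 29.6% of 4597 other genes. These others were less abundant (median of the mean level 39.0 FPKM, against 196.5 FPKM). Outside this bound were 27 of the 83 genes, whose intervals do not exclude a change of 1.5-fold, and 7 of these are the genes under 20 FPKM. The count of 56 fell to 35 without WT_215, to 35 without WT_213 and to 36 without KO_218, fits with fewer samples.

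The interval follows from the spread between mice, which was small. The SD of log2(FPKM + 1) between libraries of 1 group had a median of 0.20 over the 76 abundant genes and of 0.35 over the 4597 others. From the lowest to the highest of the 7 libraries, the level of these 76 genes moved by a median of 1.45-fold, by under 1.5-fold in 45 and by 2-fold or more in 4 (Cox6b2, Cyc1, Atp5g2 and Ndufs5). The median range was 1.94-fold over the other abundant genes, 1.71-fold over 78 genes of the cytosolic ribosome and 1.48-fold over 67 genes of the mitochondrial ribosome, so the last of these lists was about as even. The most even gene was Ndufb10, an accessory subunit of complex I, at 160.1, 186, 182 and 186 FPKM in the controls and 177, 179 and 168 FPKM in Med23 CKO. Its lowest and highest values, 1.16-fold apart, were both control mice.

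**Figure D2:**
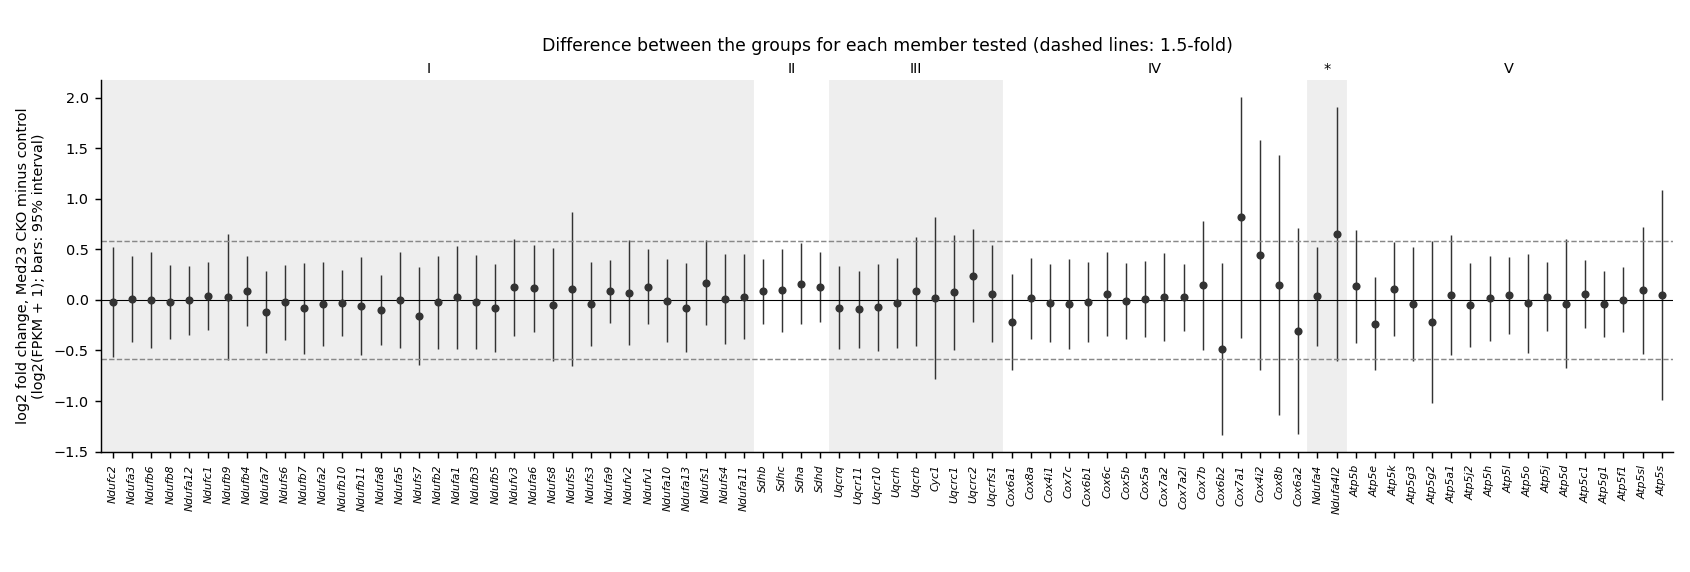
Log2 fold change of Med23 CKO against control (points, log2(FPKM + 1)) with its 95% interval (bars) for 82 of the 83 genes tested, grouped by complex, with dashed lines at 1.5-fold. Every interval drawn includes 0, and 55 lie within the dashed lines.

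Complex I, the NADH dehydrogenase, had a median log2 fold change of -0.01 over 35 genes, with 16 above 0 and 19 below and a range from -0.16 to 0.17. The ends of that range were both subunits of the electron path. Ndufs1, which carries iron-sulfur clusters, was at 55.3, 60.7, 70.2 and 49.8 FPKM in the controls and at 57.1, 67.4 and 74.7 FPKM in Med23 CKO (log2 fold change 0.17, SE 0.18). Ndufs7, which holds the last cluster before ubiquinone, was at 159, 142, 148 and 193 FPKM and at 165, 161 and 109 FPKM (-0.16, SE 0.21). In both genes the groups overlapped. The core subunits Ndufv1 (0.13) and Ndufs8 (-0.05) lay between them. The intervals of 28 of the 35 genes stayed within 1.5-fold, which were 3 of 7 redox and quinone subunits and 25 of 28 others. Those of Ndufs1 (-0.25 to 0.589), Ndufs7 (-0.64 to 0.33) and Ndufs8 (-0.61 to 0.51) did not.

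Complex II, the succinate dehydrogenase shared with the citric acid cycle, was the one complex whose genes all had positive differences. Sdha, the flavin-bearing catalytic subunit, was at 132, 113, 136 and 110.1 FPKM in the controls and at 118, 160.3 and 135 FPKM in Med23 CKO (0.16, SE 0.17). Sdhb was at 143, 149, 162 and 156 FPKM and at 164, 169.5 and 151 FPKM (0.08, SE 0.14). The membrane anchors Sdhc and Sdhd had log2 fold changes of 0.10 (SE 0.18) and 0.13 (SE 0.15). The groups overlapped in each of these 4 genes, and all 4 intervals lay within 1.5-fold.

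The mean log2(FPKM + 1) of the 4 complex II genes was 7.07, 6.95, 7.06 and 7.08 in the controls and 7.20, 7.16 and 7.10 in Med23 CKO, so that here the groups did not overlap, by a gap smaller than the range within either group. No test is given for this score. It depended on the scaling: the 3 Med23 CKO means stayed above the 4 control means with a pseudocount of 0.1 and with libraries centred on their medians, and overlapped them after quantile normalization, rescaling of each library to the same sum or removal of the trend with length and GC content. The difference of means was between 0.09 and 0.14 under all of these.

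Complex III, which passes electrons from ubiquinol to cytochrome c, had a median of 0.02 over 9 genes. Uqcrc2, a core protein, had the smallest p of the complex, at 104, 122, 129 and 84.3 FPKM in the controls and 114, 127 and 145 FPKM in Med23 CKO (0.24, SE 0.20), with overlapping groups. Uqcrc1, the other core protein, and Uqcrfs1, the Rieske iron-sulfur protein, had differences of 0.07 and 0.06. Cyc1, cytochrome c1, was 1 of the 4 genes here of at least 20 FPKM that ranged 2-fold or more. It was at 185, 117.1, 148 and 264 FPKM in the controls and 262, 151 and 131 FPKM in Med23 CKO. Its 2 highest values came from 1 mouse of each group, and its log2 fold change was 0.02 (SE 0.34, 95% interval -0.78 to 0.82).

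Complex V, the ATP synthase, had a median of 0.02 over 17 genes. Atp5a1 and Atp5b, the alpha and beta subunits of the catalytic head, had differences of 0.05 (SE 0.25) and 0.13 (SE 0.24). Atp5b was at 882, 625, 765 and 976 FPKM in the controls and 1144, 767 and 773 FPKM in Med23 CKO, so that the highest and the lowest mouse were 1.83-fold apart and the groups overlapped. Atp5e, the small epsilon subunit, had the smallest p of the complex (-0.23, SE 0.20), at 617, 790, 748 and 672 FPKM and at 483, 700 and 633 FPKM. Its lowest value was Med23 CKO mouse KO_117, in which Atp5b was highest. Atp5g1, Atp5g2 and Atp5g3 encode the same c subunit of the membrane ring. Atp5g1 was even, from 171 to 202 FPKM, whereas Atp5g2 ranged from 330 to 776 FPKM and Atp5g3 from 436 to 765 FPKM, and their differences between groups were -0.04, -0.22 and -0.04.

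Complex IV, cytochrome c oxidase, had a median of 0.01 over the 16 genes tested and the widest range, from -0.48 (Cox6b2) to 0.82 (Cox7a1). Its abundant ubiquitous subunits differed little. Cox4i1, Cox5a and Cox8a had differences of -0.03 (SE 0.17), 0.01 (SE 0.16) and 0.01 (SE 0.17). Cox6a1, the most abundant of the 85 genes, was at 1094, 1409, 1205 and 1515 FPKM in the controls and 1142, 1278 and 952 FPKM in Med23 CKO (-0.21, SE 0.20), with overlapping groups. Cox7a2l, which takes part in the assembly of respiratory supercomplexes, stayed between 147 and 171 FPKM.

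Several complex IV subunits have a second gene used by another tissue or condition, and these isoforms were minor here. Cox6b2, known from testis, was the largest, with 4.66% to 11.7% of the summed FPKM of Cox6b1 and Cox6b2. It was at 46.0, 85.8, 89.0 and 47.1 FPKM in the controls and 28.3, 63.4 and 51.7 FPKM in Med23 CKO (-0.48, SE 0.36, exact permutation p = 0.286). Cox7a1 held 1.40% to 8.34% of its pair with Cox7a2. Cox4i2, an isoform known from lung and induced by low oxygen, held 0.145% to 0.771% of its pair with Cox4i1. Cox6a2 and Cox8b, both known from heart and skeletal muscle, reached at most 0.351% and 0.517% of their pairs with Cox6a1 and Cox8a.

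Cox7a1 was at 5.35, 4.25, 6.56 and 2.56 FPKM in the controls and 3.31, 18.1 and 9.86 FPKM in Med23 CKO (0.82, SE 0.51, 95% interval -0.37 to 2.01, exact permutation p = 0.257). Med23 CKO mouse KO_214 was the highest and Med23 CKO mouse KO_117 among the lowest, so the groups overlapped. Without mouse KO_214 the difference was 0.32, and without mouse KO_117 it was 1.40, which passed an unadjusted limma threshold of 0.05. Ndufa4l2, a paralog of the complex IV subunit Ndufa4 that is known to be induced by hypoxia, was at 1.18, 2.23, 4.08 and 3.68 FPKM in the controls and 4.56, 11.2 and 1.67 FPKM in Med23 CKO (0.65, SE 0.54, exact permutation p = 0.371). It was again highest in mouse KO_214, and without that mouse the difference was 0.10. Without mouse KO_218 it was 1.19, which passed the same threshold, and with array weights it was -0.09. KO_214 is the library with the high mural cell and microglia markers, and their part in these values was not tested. The muscle markers Acta1, Ckm, Myh7, Tnnt2 and Mb summed to 0.489 to 3.96 FPKM, and this sum was also highest in KO_214. Most of it there was Tnnt2 alone, at 3.20 FPKM in KO_214. Tnnt2 was the only 1 of the 5 to reach a mean of 0.5 FPKM, so these values are near the floor.

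**Figure D3:**
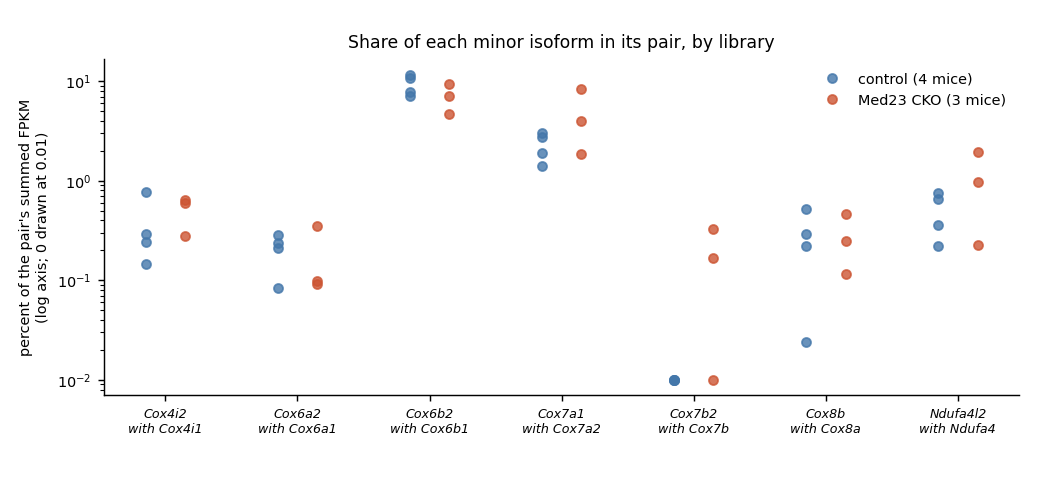
Share of the less used gene in the summed FPKM of its pair (log axis, with 0 drawn at 0.01) for 7 pairs, in control (blue, 4 mice) and Med23 CKO (orange, 3 mice). Cox6b2 has the largest share, 4.66% to 11.7%, and in no pair are the groups apart (Cox7b2 is listed at 0 in 5 libraries, 1 of them Med23 CKO).

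The genes did not all rise and fall together from mouse to mouse: some moved alike and others in the opposite direction. Over the 7 libraries, the mean log2(FPKM + 1) of the 85 genes was 7.04, 7.20, 7.21 and 7.18 in the controls and 7.17, 7.20 and 7.17 in Med23 CKO, a span of 0.17 on the log2 scale, of which the low end is control mouse WT_215. That mouse had the lowest value for 22 of the 76 abundant genes and the highest for none. Among the most variable of these 76 genes, Atp5g2 was at 637, 369, 481 and 776 FPKM in the controls and 707, 330 and 437 FPKM in Med23 CKO. Ndufs5, an accessory subunit of complex I, was at 72.3, 156, 157 and 78.4 FPKM and at 109, 131 and 112 FPKM. Within the controls, mice WT_215 and WT_220 were the 2 highest for Atp5g2 and the 2 lowest for Ndufs5. Cox7b, a small complex IV subunit, was at 120.3, 176, 165 and 101 FPKM and at 111, 164 and 190 FPKM, low in the same 2 controls.

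**Figure D4:**
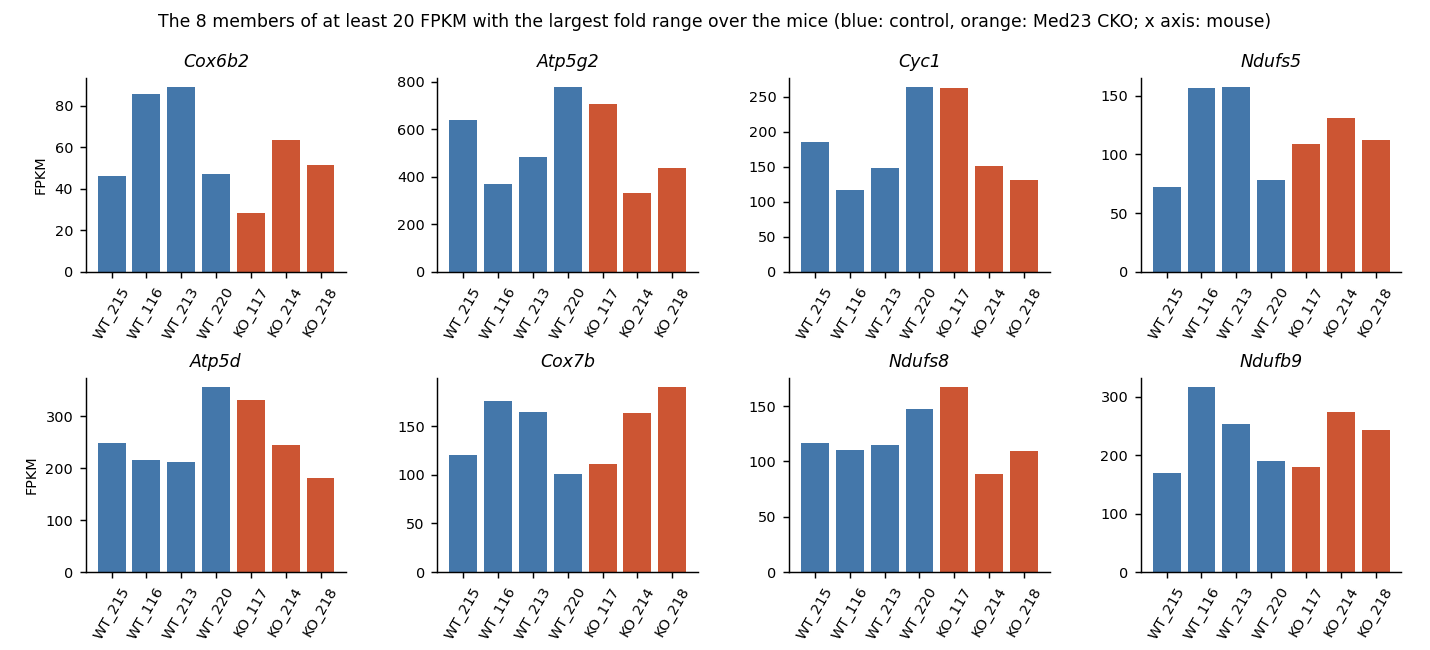
FPKM in each of the 7 mice (blue control, orange Med23 CKO) for the 8 genes of at least 20 FPKM with the largest fold between the highest and lowest mouse. Atp5g2, Cyc1, Atp5d and Ndufs8 are high in mice WT_220 and KO_117, where Cox6b2, Cox7b and Ndufb9 are low, and in no gene are the groups apart.

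Markers of the cell cycle moved far more between the same mice. The mean log2(FPKM + 1) of 30 cell cycle genes was 5.59, 3.83, 4.64 and 5.69 in the controls and 6.07, 2.89 and 4.69 in Med23 CKO, and that of 12 microglia and macrophage genes was 1.99, 2.82, 3.18 and 1.499 and then 1.57, 4.83 and 2.85. Against these spans of 3.18 and 3.33, the spans of the complexes were 0.22 for complex I, 0.25 for complex II, 0.19 for complex III, 0.34 for complex IV and 0.16 for complex V.

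**Figure D5:**
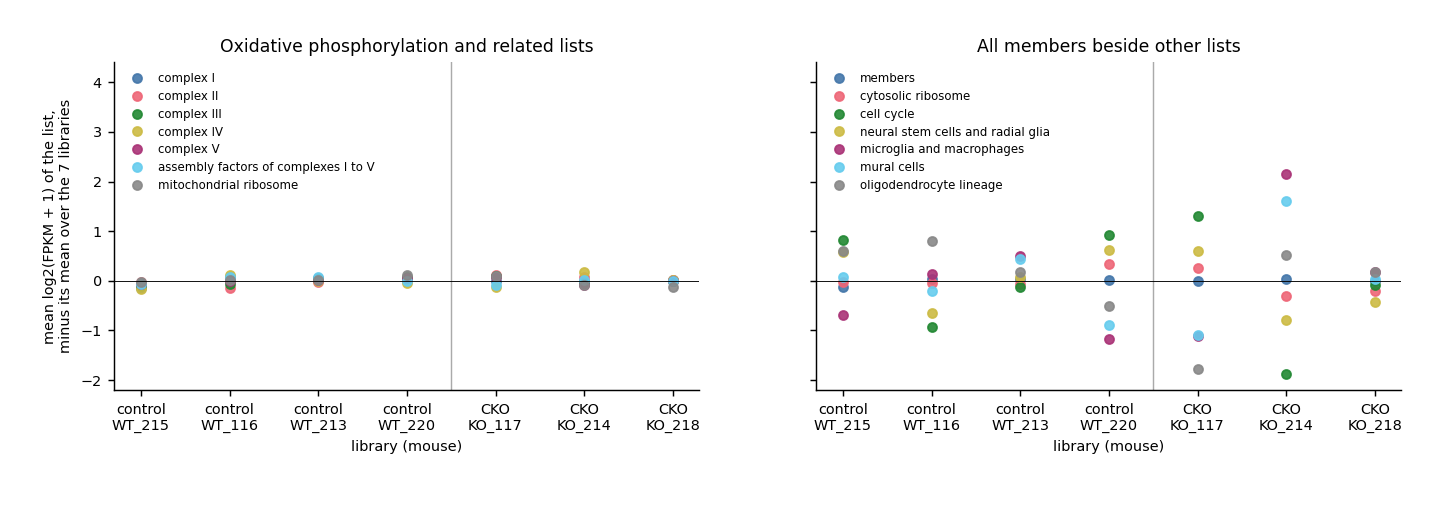
Mean log2(FPKM + 1) of each list in each library, minus that list's mean over the 7 libraries, with controls left of the grey line and Med23 CKO right of it. The complexes, their assembly factors and the mitochondrial ribosome stay close to 0 (left), whereas cell cycle, microglia and mural cell lists depart by over 1 in KO_117 and KO_214, as the microglia list does in the control WT_220 (right).

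The other genes of the pathway were examined as whole lists. The 13 mitochondrially encoded subunits were looked up by symbol, 0 of them were found in the table, and they are not analysed here. Of 47 assembly factors of complexes I to V, 0 had an unadjusted p under 0.05 in either direction, and their median log2 fold change was -0.03. The smallest p among them was that of Pet117, a factor for complex IV assembly, at 3.36, 2.03, 4.03 and 9.75 FPKM in the controls and 2.57, 1.37 and 1.72 FPKM in Med23 CKO (-0.86, SE 0.42, exact permutation p = 0.114), with overlapping groups. Of 25 genes for cytochrome c, ubiquinone synthesis and nucleotide and phosphate exchange, 0 passed, with a median of -0.04. Of 77 mitochondrial ribosomal proteins, 0 passed, with 22 above 0 and 55 below and a median of -0.07, beside 6196 above 0 and 7955 below over all genes tested. The mean log2(FPKM + 1) of this list was 5.274 to 5.419 in the controls and 5.388, 5.217 and 5.186 in Med23 CKO, with overlapping groups.

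Among 23 regulators of mitochondrial gene expression, 0 passed at an unadjusted p under 0.05, and 1 had all its Med23 CKO values above all its control values, beside 0.784% of all genes. This was Ppargc1a, the coactivator PGC-1alpha, at 3.82, 2.34, 4.78 and 2.99 FPKM in the controls and 5.30, 4.81 and 5.98 FPKM in Med23 CKO. The log2 fold change of this gene was 0.53 (SE 0.24, limma p = 0.0597, adjusted p = 0.9999, exact permutation p = 0.0571), and the highest control and the lowest Med23 CKO mouse differed little. Of 78 cytosolic ribosomal proteins, 1 (1.28%) was lower in Med23 CKO at an unadjusted limma p under 0.05, beside 0.996% of all genes. This count is near the background share. The gene was Rpl30, at 73.2, 78.0, 68.2 and 81.8 FPKM in the controls and 52.7, 44.6 and 54.2 FPKM in Med23 CKO (-0.57, SE 0.15, exact permutation p = 0.0286, the smallest possible, and adjusted p = 0.9999). That list had 9 genes above 0 and 69 below, with a median of -0.15, where the 83 oxidative phosphorylation genes were at 0.01. Its mean log2(FPKM + 1) was 9.106, 9.08, 9.064 and 9.467 in the controls and 9.385, 8.822 and 8.923 in Med23 CKO, so the groups overlapped. Over all genes tested, 6196 were above 0 and 7955 below. Genes of a list that vary together between mice are not independent counts.

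Some values cover more than 1 gene. The library kit named in the methods does not mark strand, and exons of 26 of the 85 genes overlap those of a gene on the opposite strand in GENCODE M21, among them Ndufa4l2 (Shmt2), Cox6a2 (Itgad), Uqcrc2 (Pdzd9), Ndufs1 (Eef1b2) and Cox4i1 (Emc8), so their reads cannot be told apart. RefSeq also lists 15 entries named as copies of 9 of the genes, such as Atp5k and Uqcrh, and 0 of these are rows of the table. The genes are spread over 19 chromosomes, and their longest transcripts are short, with a median of 1005 bases against 3380 over all genes tested.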

How the data were processed

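Per the study's methods and the labels, the authors made libraries with the NEBNext Ultra RNA kit, removed adapters with cutadapt, aligned reads to mm10 with TopHat and deposited FPKM per gene from Cuffdiff (tool versions of the aligner and of Cuffdiff are not given in the sources used here). The deposited table also holds group means and the authors' comparison (a log2 fold change, a test score, a p-value and a q-value per gene), none of which was used. Columns were matched to libraries by title, and 0 columns of other samples were found. Low FPKM did not give whole reads (fullest bin 4.56%), so depth is unknown and no counting interval is given. The study gives 3 mice per group for RNA-seq. The table has 4 controls, and none was left out. Cultures were made from mice of 2 months. The methods place tamoxifen for cultures at 1 month of age, while the labels place tamoxifen at 2 months.

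Values were analysed as log2(FPKM + 1) for the 14151 genes with a mean of at least 0.5 FPKM over the 7 libraries, by limma 3.58.1 (lmFit, eBayes with trend, two-sided, R 4.3.3) with Benjamini-Hochberg adjustment over all of them, which stands in for Cuffdiff. Fold changes on this scale understate those of low genes. Intervals are 95% intervals from limma's moderated SE. Single genes were also tested by exact two-sided permutation over 35 splits, with 0.0286 as the smallest p possible. The fit was tested on simulated data. Members and lists were chosen with earlier results of these data known, and so were the genes named: in each complex the most abundant and that with the smallest p, the isoform pairs, the catalytic subunits and the most variable genes, plus Med23 and the genes with the smallest p of the other lists. Further genes (Ndufb10, Atp5g1, Atp5g2, Atp5g3, Ndufs5, Ndufb9, Atp5d and Sdhc and Sdhd) were chosen after their values were seen. Gene lengths and overlaps come from GENCODE M21, promoters and positions from RefSeq, both on GRCm38. Alternatives were other pseudocounts, filters, scalings and limma options, a covariate for the leading digit of each mouse's number, and each library left out in turn. No label says that libraries of a group shared a culture day. For 1 of the 85 genes no value of its own is reported here, and it is not drawn, though it is in the counts and medians.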

Additional observations from a re-analysis of the deposited data

How the results depend on the processing

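No paired analysis was made. The controls were littermates by the study's methods, but the mouse numbers do not say which mice shared a litter. With a covariate for the leading digit of each mouse's number, 0 genes passed the adjusted threshold and 45 members had an interval within 1.5-fold. Under all 19 alternatives 0 of the oxidative phosphorylation genes had an adjusted p under 0.05. Over all genes, 0 to 1 passed when 1 library was left out (1 without Med23 CKO mouse KO_214 and 1 without Med23 CKO mouse KO_218) and 0 under the others. At an unadjusted p under 0.05 the members numbered 1 with no filter on low values (Cox7b2), 2 with array weights (Cox7a1 and Ndufs7), and 0 to 1 with a library left out. The number with an interval within 1.5-fold went from 35 to 50 with a library left out, being 35 without control mouse WT_215, 35 without control mouse WT_213 and 36 without Med23 CKO mouse KO_218, and from 45 to 60 under the other alternatives. Their median log2 fold change stayed between -0.04 and 0.05. The 35 named genes tested gave 700 values, of which 630 kept the sign and the side of the unadjusted threshold and 10 kept the sign and newly passed it. The other 60, in 20 genes, had the opposite sign, and 0 of these passed it. Among these 60, Cyc1 was at -0.28 without KO_117, and Ndufa4l2 at -0.09 with array weights. With 7 libraries and unknown depth, the number of mice limits what could be seen.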

Other observations

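For each of the 76 genes of at least 20 FPKM, the level over the 7 libraries was compared with the mean of the cell cycle list and with that of the microglia and macrophage list, 152 relations in all. By exact permutation of Pearson's r, 15 and 13 genes had an unadjusted p under 0.05, or 19.7% and 17.1% of the 76. The same test gave an unadjusted p under 0.05 for 46.1% of 4575 and 41.2% of 4594 other genes of at least 20 FPKM, which leave out the genes of each list itself. Of the 76 genes, 0 had a Benjamini-Hochberg adjusted p under 0.05, for r or for Spearman's rho. The smallest adjusted p was 0.0905 for the cell cycle and 0.106 for microglia and macrophages. With the cell cycle list 34 genes had a positive r and 42 a negative one, and with the microglia and macrophage list 41 and 35.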
